A study of Drosophila melanogaster with 12 samples.

Results

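Head RNA collected within 2 h of the daily temperature drop was set against head RNA collected within 2 h of the daily temperature rise. The arrays were chosen by their labelled hour and numbered 8 of the 12 in the series. The near-cooling side held CA22, CA2, AA22 and AA2, and the near-warming side held CA14, CA10, AA14 and AA10. All flies were adult *y w*, a wild-type clock background with body and eye color mutations, and all were kept in constant darkness after more than 4 days in an 18 °C and 25 °C thermocycle. CA (cold/ambient) was a further day of that cycle, with cooling at hour 0 and warming at hour 12. AA (ambient/ambient) was a day at constant 25 °C with the same hours, on which cooling and warming were subjective only. CA2 and CA10 were harvested at 18 °C, and the other 6 of these arrays at 25 °C. Each CA side therefore had 1 cold and 1 warm array, so the comparison of times of day was balanced for the temperature at harvest. The temperature before harvest was not balanced. The hours before CA22 and CA2 were mostly at 25 °C, and those before CA14 and CA10 mostly at 18 °C. In CA a delayed effect of temperature cannot be told apart from the time of day. Each array came from pooled heads, no time point was repeated, and nothing in the labels gave the sex of the flies.

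The fly clock is a loop in which the transcription factors CLOCK (CLK) and CYCLE (CYC) switch on *period* (*per*) and *timeless* (*tim*), whose proteins return to the nucleus and shut CLK and CYC off. In an interlocked loop, VRILLE (VRI) represses and PDP1 activates *Clk*. Light and temperature cycles both set the phase of these loops, and the same transcription factors drive output genes in the eye, the glia and the fat body of the head.

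Values were log2 levels after robust multi-array averaging (RMA), in which 1 unit is a doubling of the signal. Array medians lay between 5.558 and 5.603, and 11145 probe sets, standing for 8908 named genes, passed the filter on low values. Markers of the eye were measured on every array: the mean over 14 photoreceptor markers lay between 8.43 and 8.996 on the 8 arrays, against array 20th percentiles of 4.14 to 4.19. Genes of gut, muscle and male glands were also measured, in unequal amounts. An index of 69 such markers, taken as the mean log2 deviation from the 12-array average, was -0.17, 0.06, -0.36 and -0.12 in CA22, CA2, AA22 and AA2, and 0.71, -1.37, 0.47 and -0.33 in CA14, CA10, AA14 and AA10. The near-warming arrays thus included both the highest and the lowest of the 8, CA14 and CA10. The side means, -0.15 ± 0.18 near cooling and -0.13 ± 0.94 near warming (SD, n = 4 each), were 0.0195 apart, the near-cooling mean being the lower (exact permutation test, two-sided p = 0.971, smallest possible 0.0286). In whole heads, fewer cells of a type and less RNA per cell cannot be told apart.

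**Figure D1:**
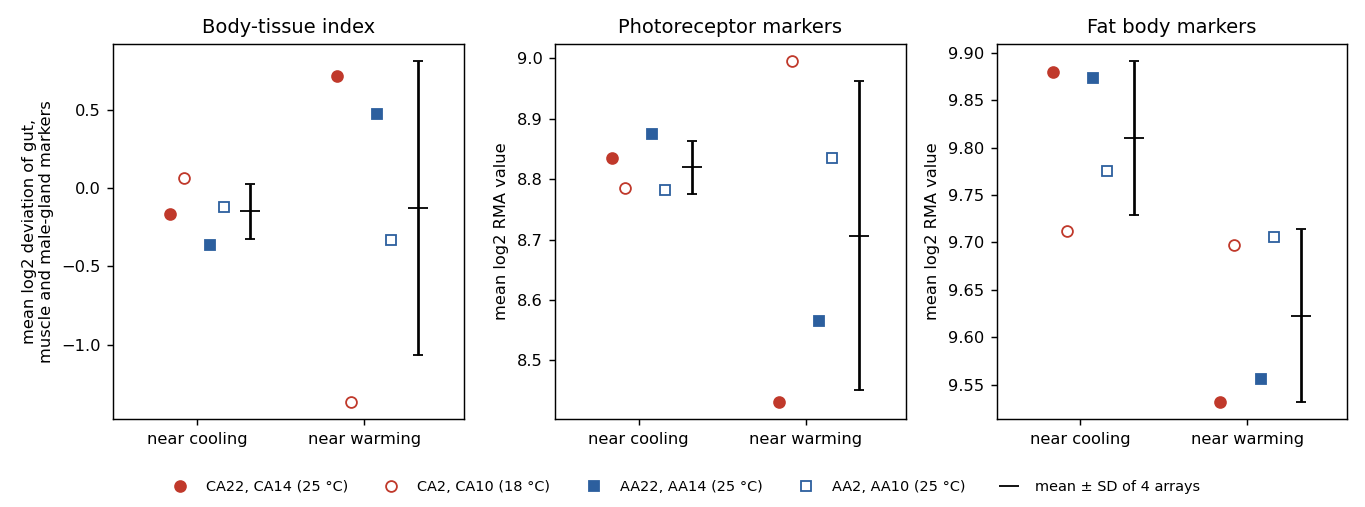
Mean log2 deviation of 69 gut, muscle and male-gland markers, and mean log2 level of 14 photoreceptor and 13 fat body markers, on the 4 near-cooling and the 4 near-warming arrays. Each point is 1 array and the bars give the mean and SD of 4 arrays. The body-tissue index spanned -0.36 to 0.06 near cooling and -1.37 to 0.71 near warming.

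Across the transcriptome the 2 times of day differed little compared with the spread between arrays, which within each side came from different hours. No probe set passed an adjusted p of 0.05 in both days together (0 of 11145, 0%) in limma with a temperature term, and the smallest adjusted p was 0.901. At an unadjusted p under 0.05 there were 532 probe sets (4.77%), of which 348 (3.12%) lay higher near cooling and 184 (1.65%) lower. In CA alone 0 passed and 536 (4.81%) had an unadjusted p under 0.05, and in AA alone 0 passed and 158 (1.42%) did. The test that the CA difference exceeded or fell short of the AA difference also gave 0 calls, with 183 probe sets (1.64%) at an unadjusted p under 0.05. The spread behind these tests rested on 3 residual degrees of freedom, and p-values measure only the variation between these arrays. Because the 2 arrays of a side on each day were of different hours, that spread included changes between those hours. The exception was a change shared by both sides in CA, which the temperature term took up. The 0 calls therefore do not show an absence of change with the time of day. All 4 near-cooling values lay above all 4 near-warming values in 208 probe sets (1.87%) and below them in 164 (1.47%).

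A pair of other models gave calls. A 24-h cosine fitted to each day over all 12 arrays called 5 probe sets for both days together, *Cyp18a1*, *Daao1*, *CG10175* and *Obp99a* higher near cooling and *CG9377* lower, and 4 in CA, *tim*, *Daao1* and *Obp99a* higher and *CG12116* lower. With the body-tissue index as a covariate 20 were called for both days, 15 higher and 5 lower, 11 in CA and 2 in AA. That covariate takes out whatever runs along the index and left 2 residual degrees of freedom. No other alternative called a probe set.

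The core clock gene with the largest difference was *tim*, which encodes the light-sensitive partner of PER. Its level near cooling was 8.41, 8.27, 8.08 and 7.85 in CA22, CA2, AA22 and AA2, and near warming it was 7.64, 7.18, 7.88 and 7.81 in CA14, CA10, AA14 and AA10. In CA both near-cooling arrays were above both near-warming arrays, whereas in AA the values overlapped. The difference was 0.93 ± 0.12 (SE) in CA and 0.12 ± 0.12 in AA, and 0.53 ± 0.08 for both days together (unadjusted p = 8.29e-04, adjusted p = 0.92). The difference between the days, 0.81 ± 0.17, had an unadjusted p of 0.00311 and did not pass adjustment (adjusted p = 0.999). In the cosine model *tim* was called in CA (adjusted p = 0.0228), and with the body-tissue index in both days together (adjusted p = 0.0406). Its lowest CA value fell at hour 10 and its highest at hour 22, a daily range of 1.23 in CA against 0.43 in AA.

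*vri* ran the other way. The level of this *Clk* repressor was 8.47, 8.19, 8.28 and 7.98 in CA22, CA2, AA22 and AA2, and 8.53, 8.66, 8.43 and 8.41 in CA14, CA10, AA14 and AA10. It was lower near cooling by a similar amount on each day, -0.27 in CA and -0.29 in AA, for a combined difference of -0.28 ± 0.10 that did not pass (unadjusted p = 0.0326, adjusted p = 0.92), and CA22 overlapped the near-warming values. *tim* and *vri* are both targets of CLK and CYC, and near cooling they lay on opposite sides. The remaining clock genes had overlapping sides and small differences over both days together. *Pdp1* differed by 0.13 ± 0.09, *cwo*, a repressor of the same targets, by 0.09 ± 0.10, *per* by 0.02 ± 0.10, *Clk* by 0.09 ± 0.13 and *cry*, which encodes the blue-light photoreceptor of clock cells, by -0.10 ± 0.07. In CA alone the sides of *Pdp1* (0.32 ± 0.12) and *cry* (-0.20 ± 0.10) did not overlap. In AA they did, with differences of -0.0675 and 0.0035. The direction of *per* and *Clk* turned when 1 array was left out (CA14, CA22 or AA14). Of 8 other measured clock components, which include the kinase genes *CkIalpha* and *dco*, 6 lay higher near cooling, with differences between -0.09 (*slmb*) and 0.12 (*CkIalpha*).

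**Figure D2:**
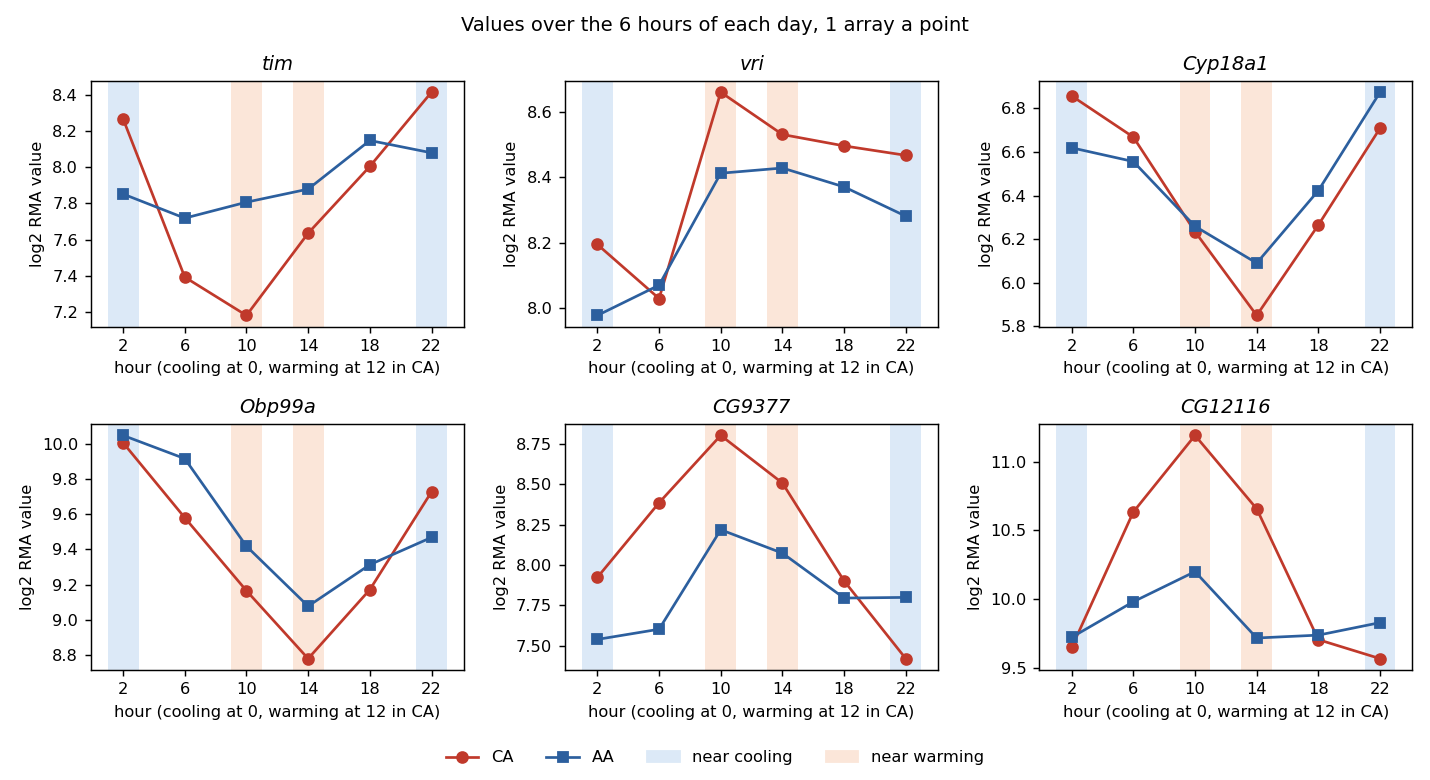
Log2 RMA value of 6 genes over the 6 hours of CA and AA, 1 array a point, with the near-cooling hours (22 and 2) and near-warming hours (10 and 14) shaded. *tim* separates the shaded hours in CA and not in AA. On both days *Cyp18a1* and *Obp99a* are higher near cooling than near warming, and *CG9377* is lower. Unshaded hours can be as high: *Obp99a* measured 9.92 in AA6, against 9.47 in AA22.

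Among 11 measured output genes that the clock is known to control, 7 lay higher near cooling and 4 lower (median 0.11), against 52.8% higher and a median of 0.0065 over all measured genes. The median was -0.0745 without CA14 or CA22 and 0.17 without CA2 or CA10, and none of the genes passed the test. Several of the genes, among them *Cyp18a1*, *Cyp4d21*, *Pdh*, *mnd* and *smp-30*, are in the paper's table of temperature-driven and temperature-entrained transcripts. The paper selected that table with its wild-type thermocycle arrays, those of *y w* flies among them. Membership in the table is therefore not independent of these data, and the list may not be. The same table holds *CG9377*, *CG9837*, *CG10175*, *Obp99a* and *CG12116*. *Cyp4d21*, also known as *sxe1* and encoding a cytochrome P450 of the male head fat body, had the largest positive difference of any probe set. Its level was 7.52, 7.39, 7.70 and 7.66 in CA22, CA2, AA22 and AA2, and 4.71, 7.27, 5.71 and 6.78 in CA14, CA10, AA14 and AA10. The near-cooling values were close to each other and all above the near-warming values, which spread over 2.55 log2 units. The difference was 1.46 in CA and 1.44 in AA, 1.45 ± 0.46 together (2.73-fold, unadjusted p = 0.02, adjusted p = 0.92). Leaving out 1 array moved it between 0.78 (without CA22 or CA14) and 2.12 (without CA2 or CA10), and CA14, the array with the highest body-tissue index of the 8, had the lowest value. With the index as a covariate the difference was 1.43 ± 0.07 and was called (adjusted p = 3.72e-04).

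*Cyp18a1*, whose P450 product inactivates the molting hormone ecdysone, was the more even of the output genes. It measured 6.71, 6.86, 6.87 and 6.62 in CA22, CA2, AA22 and AA2, and 5.85, 6.23, 6.09 and 6.26 in CA14, CA10, AA14 and AA10. The 2 sides did not overlap on either day, and the difference was 0.74 ± 0.12 in CA and 0.57 ± 0.12 in AA. Together it was 0.66 ± 0.09, or 1.58-fold (unadjusted p = 3.43e-04, adjusted p = 0.901), and the difference lay between 0.59 and 0.72 with any 1 array left out. The cosine model called it at an adjusted p of 0.0308. Of the other output genes, *Pdh*, a retinal pigment-cell dehydrogenase, differed by 0.44 ± 0.15, *e*, whose product conjugates dopamine to beta-alanine, by 0.28 ± 0.13, *regucalcin* by 0.14 ± 0.07 and *trpl*, a photoreceptor channel gene, by 0.11 ± 0.14. *Ugt35B1* (-0.28 ± 0.13) and *smp-30* (-0.24 ± 0.12) lay lower near cooling. With 1 array left out *Pdh* lay between 0.28 and 0.59, *e* between 0.14 and 0.41, *Ugt35B1* between -0.40 and -0.16 and *smp-30* between -0.37 and -0.11. *Slob*, *mnd* and *Cyp6a21* differed by less than 0.06 in size, and their direction and that of *trpl* turned when 1 array was left out. In all of these 9 genes the sides overlapped. *mnd* was near the floor, at 4.07 to 4.37 on the compared arrays against array 20th percentiles of 4.14 to 4.19, so its small difference says little.

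By the naming rule, places not filled by the test went to genes with no overlap between sides and a difference over 0.3. Of 8908 measured genes, 33 met this higher near cooling and 6 higher near warming. Without the limit on size, 183 and 119 of the 8908 had no overlap. The 12 named on the near-cooling side had differences between 0.31 and 0.66 and unadjusted p between 3.43e-04 and 0.00344. None passed in limma. The mid-phase hours (6 and 18) took no part in the comparison of sides, so a gene named here need not peak near a temperature change. In AA6 *CtsL1* measured 10.825 and *CG17298*, named on the near-warming side, 8.339, each above its values on all 8 compared arrays.

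*Daao1*, encoding a D-amino acid oxidase, measured 8.68, 8.63, 8.53 and 8.602 in CA22, CA2, AA22 and AA2, and 7.94, 7.99, 8.05 and 8.31 in CA14, CA10, AA14 and AA10. *CG9837* measured 6.64, 6.75, 6.65 and 6.69 near cooling, in the same order of arrays, and 6.06, 6.02, 6.16 and 6.39 near warming. For both genes the near-cooling values stayed within 0.15 log2 units of each other, and AA10 was the highest near-warming value. The differences were 0.54 ± 0.08 for *Daao1* (cosine model, adjusted p = 0.0197) and 0.52 ± 0.07 for *CG9837*, each larger in CA (0.69 and 0.65) than in AA (0.39 for both). That the days differed was not shown for either (unadjusted p = 0.0957 and 0.119).

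*Dgat2*, whose product makes triglyceride from diacylglycerol, had a difference of 0.50 ± 0.07, 0.58 in CA and 0.41 in AA. Its level was 6.88, 6.81, 6.69 and 6.58 in CA22, CA2, AA22 and AA2, and 6.47, 6.06, 6.19 and 6.24 in CA14, CA10, AA14 and AA10. *CG10175* differed by 0.43 ± 0.06 and was called by the cosine model (adjusted p = 0.0468). *CG18302*, a lipase-like gene, differed by 0.44 ± 0.09 and *osy*, an ABC transporter gene needed for the lipid barrier of the cuticle, by 0.41 ± 0.09. *CG14259*, of the family of secreted ligand-binding proteins named after *takeout*, differed by 0.38 ± 0.07.

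In 2 transcripts the days were closely alike. *CG34166* measured 12.76, 12.85, 12.83 and 12.84 in CA22, CA2, AA22 and AA2, and 12.42, 12.54, 12.43 and 12.52 in CA14, CA10, AA14 and AA10. *CtsL1*, encoding the lysosomal protease cathepsin L, measured 10.77, 10.74, 10.72 and 10.73 near cooling and 10.36, 10.47, 10.34 and 10.42 near warming. Each differed by 0.34 on both days together, with 0.33 in CA and 0.36 in AA for *CG34166* and 0.34 on each day for *CtsL1* (1.27-fold for both genes). *CG7530* (0.31 ± 0.06) and *Drsl5*, a drosomycin-like peptide gene (0.32 ± 0.07), completed the 12.

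**Figure D3:**
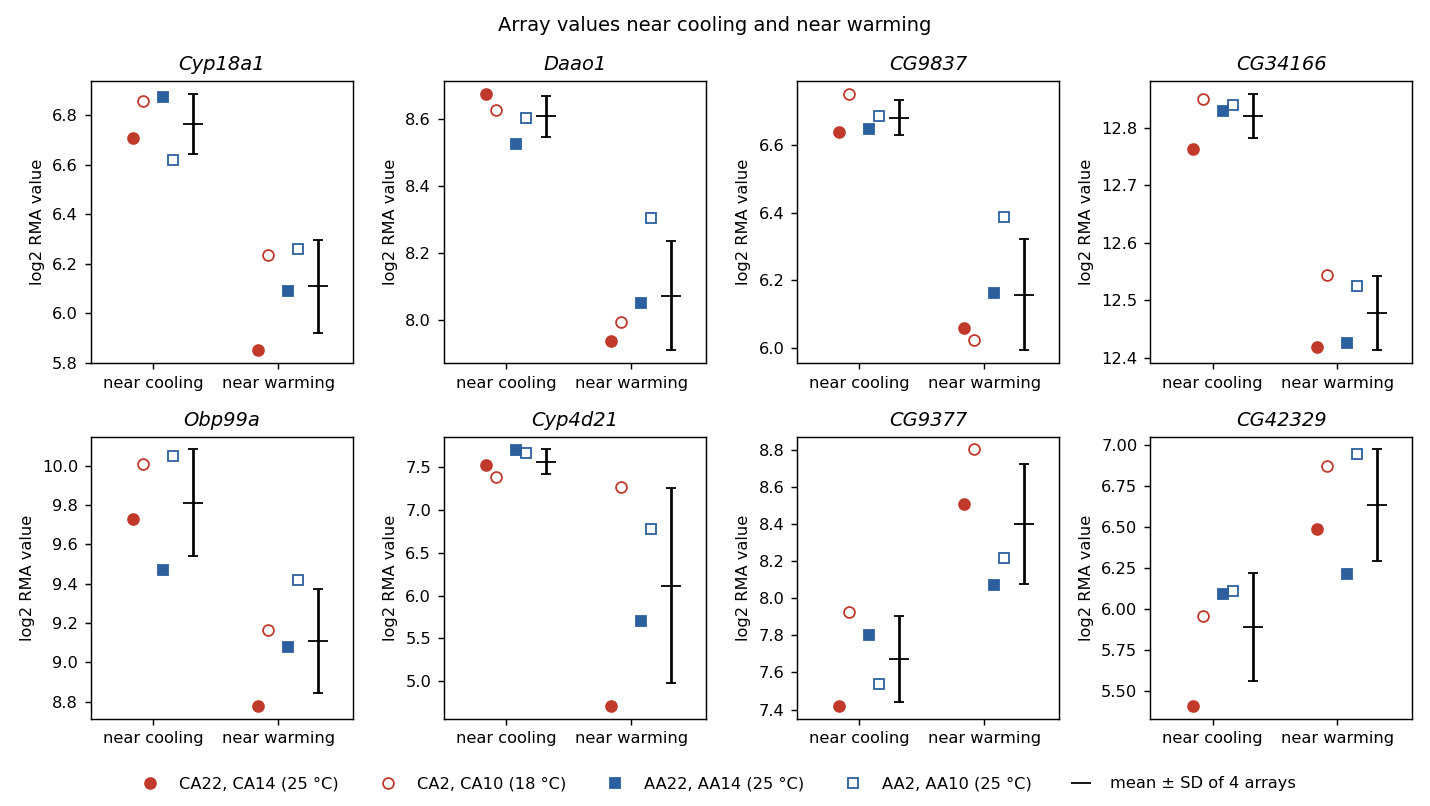
Log2 RMA values of 8 genes on the 4 near-cooling and the 4 near-warming arrays; each point is 1 array, and the bars give the mean and SD of 4 arrays. In each of the 8 genes the sides do not overlap, and *Cyp4d21* spreads from 4.71 to 7.27 near warming.

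*CG9377* had the smallest p of all probe sets and was the clearest gene on the near-warming side. Its level was 7.42, 7.92, 7.80 and 7.54 in CA22, CA2, AA22 and AA2, and 8.51, 8.80, 8.07 and 8.22 in CA14, CA10, AA14 and AA10. The difference was -0.98 ± 0.12 in CA and -0.48 ± 0.12 in AA, together -0.73 ± 0.08 (unadjusted p = 1.63e-04, adjusted p = 0.901). The cosine model called it (adjusted p = 0.0468), and so did the fit with the body-tissue index (adjusted p = 0.0166). Hour 10 held its highest value on both days.

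The other 5 genes on the near-warming side were *CG42329* (-0.74 ± 0.16), *Acp1*, an adult cuticle protein gene (-0.43 ± 0.18), *Indy*, encoding a plasma membrane citrate transporter (-0.42 ± 0.11), *firl* (-0.40 ± 0.07) and *CG17298* (-0.32 ± 0.08). *Indy* measured 7.92, 7.79, 8.01 and 7.75 in CA22, CA2, AA22 and AA2, and 8.30, 8.76, 8.04 and 8.07 in CA14, CA10, AA14 and AA10. Its AA22 and AA14 values were 0.03 apart, so the absence of overlap there was slight. *Acp1* lay between 8.94 and 9.36 near cooling, against 10.13 in CA14 and 9.39 to 9.41 on the other 3 near-warming arrays, and its difference was -0.17 without CA14 or CA22 and -0.70 without CA2 or CA10. That of *Indy* lay between -0.57 (without CA14 or CA22) and -0.27 (without CA2 or CA10). The largest negative difference of all belonged to *CG18609*, which was outside the rule because its sides overlapped and was chosen after its values were seen. It measured 6.36, 6.87, 5.83 and 6.27 in CA22, CA2, AA22 and AA2, and 9.49, 6.39, 8.51 and 7.89 in CA14, CA10, AA14 and AA10, a difference of -1.74 ± 0.55 (adjusted p = 0.92). With the index as a covariate it was called in both days together (-1.71 ± 0.11, adjusted p = 0.00173).

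**Figure D4:**
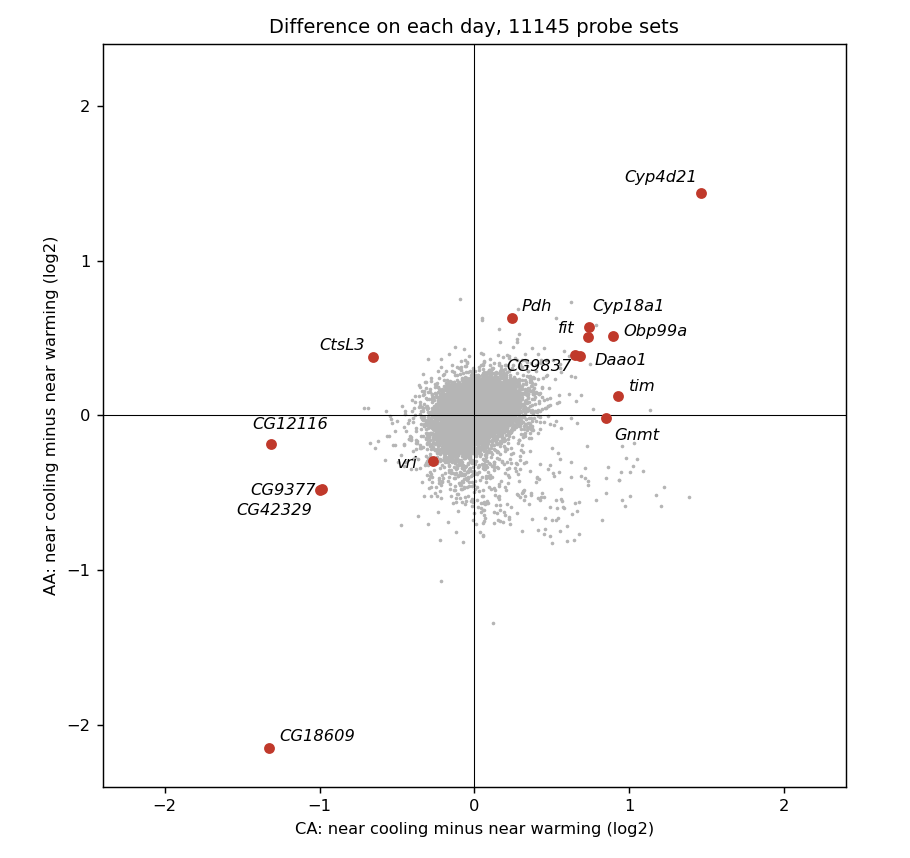
Log2 difference, near cooling minus near warming, in CA (horizontal axis) and in AA (vertical axis) for 11145 probe sets (gray), with genes named in the text in red. *Cyp4d21* and *CG18609* are far from 0 on both days, *tim* and *CG12116* on the CA axis, and the gray points to the lower right were higher near cooling in CA and lower in AA.

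Set side by side, the 2 days shared direction in 6367 probe sets (57.1%). Of 113 probe sets with a CA difference over 0.5 in size, 46 (40.7%) had the same sign in AA, and of 141 with such an AA difference, 48 (34%) had the same sign in CA. Of the 113, 92 were higher near cooling, and of the 141, 126 were lower. Markers of body tissues ran with this. Of 32 gut enzymes 22 lay higher near cooling in CA (median 0.32) and 2 in AA (median -0.32). Of 20 male accessory gland and testis markers 15 lay higher in CA (median 0.12) and 0 in AA (median -0.48), and of 17 muscle markers 11 (median 0.06) and 1 (median -0.14). The body-tissue index itself differed by 0.27 in CA and by -0.31 in AA, and its part in these differences was not tested.

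For single genes the difference between days did not pass. Beside *tim*, the genes with the smallest p above 0 were *Scox*, an assembly factor gene of cytochrome c oxidase, *Gnmt*, encoding glycine N-methyltransferase, and *CRIF*. *Gnmt* measured 9.46 and 9.43 in CA22 and CA2, against 8.84 and 8.35 in CA14 and CA10, while in AA it measured 9.14 and 9.02 near cooling and 9.19 and 9.004 near warming. Its difference was 0.85 ± 0.14 in CA and -0.02 ± 0.14 in AA (unadjusted p of the difference between days = 0.00424). *CG12116* was the counterpart below 0, with 9.57 and 9.65 in CA22 and CA2, against 10.66 and 11.19 in CA14 and CA10. In AA it measured 9.83 and 9.72 near cooling and 9.72 and 10.20 near warming. The difference was -1.32 ± 0.19 in CA and -0.18 ± 0.19 in AA (unadjusted p of the difference between days = 0.00553). Of the mid-phase values in CA, that at hour 6 was 10.63 and that at hour 18 was 9.70. *CtsL3* (-0.65 in CA, 0.38 in AA), *CG7402* (-0.25, 0.20) and *CG15564* (-0.10, 0.30) were the other 3 below 0.

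Most carbohydrate metabolism genes lay lower near cooling. Of 27 measured genes, which cover glycolysis, glycogen, sugar transport and related enzymes, 2 lay higher near cooling and 25 lower (7.41% higher, median -0.07), 3 higher in CA and 7 in AA, against 52.8% of all measured genes in both days. None passed, and 4 had an unadjusted p under 0.05, all lower (1.65% of all probe sets lay lower at that threshold). *AGBE*, the glycogen branching enzyme gene, measured 7.81, 7.82, 7.87 and 7.54 in CA22, CA2, AA22 and AA2, and 8.50, 8.37, 7.98 and 7.76 in CA14, CA10, AA14 and AA10 (-0.39 ± 0.10). *Idh*, encoding isocitrate dehydrogenase, had no overlap, with 10.19 to 10.24 near cooling and 10.37 to 10.45 near warming, a difference of -0.19 ± 0.05. *UGP*, which makes the UDP-glucose for glycogen, differed by -0.27, the trehalose transporter gene *Tret1-1* by -0.19 and the glycolytic genes *Gapdh1*, *Ald1* and *Pgk* by -0.14, -0.14 and -0.13. The list median lay between -0.13 and -0.04 with 1 array left out and was -0.07 with the body-tissue index as a covariate.

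Fat storage genes did not lean together, with 15 of 27 higher (median 0.0068). Within them *Acsx3* (0.50 ± 0.13) and *Elovl7*, a fatty acid elongase gene (0.22 ± 0.06), lay higher near cooling beside *Dgat2*. Of the 27, 4 lay higher and 1 lower at an unadjusted p under 0.05, and the lowest difference in the list was -0.35. Of 13 fat body markers 10 lay higher (median 0.05, but 0.02 without AA14 and 0.17 without CA2 or CA10). The highest after *Cyp4d21* was *fit*, which encodes a satiety peptide made mainly by the female fat body. It measured 9.22, 8.59, 9.57 and 9.56 in CA22, CA2, AA22 and AA2, and 8.33, 8.003, 8.82 and 9.30 in CA14, CA10, AA14 and AA10. Within each day its near-cooling values were the higher ones, by 0.74 in CA and 0.51 in AA, and AA levels were above CA levels on both sides. *apolpp*, the precursor of the lipid-carrying lipophorin, differed by 0.27 ± 0.08. Of 19 genes of insulin, TOR and starvation signaling 16 lay higher (median 0.07), with the hormone gene *Akh*, the fly counterpart of glucagon, lower (-0.22 ± 0.13), and none reached an unadjusted p under 0.05. The median was 0.01 without CA14 or CA22 and 0.12 without CA2 or CA10.

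Of 25 odorant-binding protein genes 17 lay higher near cooling (median 0.09, but 0.0025 without CA14 or CA22 and 0.16 without CA2 or CA10), led by *Obp99a*. It measured 9.73, 10.01, 9.47 and 10.05 in CA22, CA2, AA22 and AA2, and 8.78, 9.17, 9.08 and 9.42 in CA14, CA10, AA14 and AA10. On both days the level was highest at hour 2 and lowest at hour 14. The difference was 0.89 in CA and 0.51 in AA, 0.70 ± 0.15 together (adjusted p = 0.92 in limma and 0.0197 in the cosine model). *Obp56e* (0.30 ± 0.10) also had no overlap, and *Obp56a* (0.32 ± 0.11) did. Of 14 photoreceptor markers 13 lay higher near cooling (median 0.12), led by *inaD* (0.24 ± 0.15), *trp* (0.21 ± 0.13) and the arrestin gene *Arr1* (0.18 ± 0.12), with 0 at an unadjusted p under 0.05. The marker mean was 8.84, 8.79, 8.87 and 8.78 in CA22, CA2, AA22 and AA2, and 8.43, 8.996, 8.56 and 8.84 in CA14, CA10, AA14 and AA10, so that CA14 and AA14 were the lowest of the 8 and CA10 the highest. The median was -0.0034 without CA14 or without CA22. CA14 and AA14 also had the 2 highest body-tissue indices of the 8 arrays, and the part of tissue content in the lean was not tested.

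**Figure D5:**
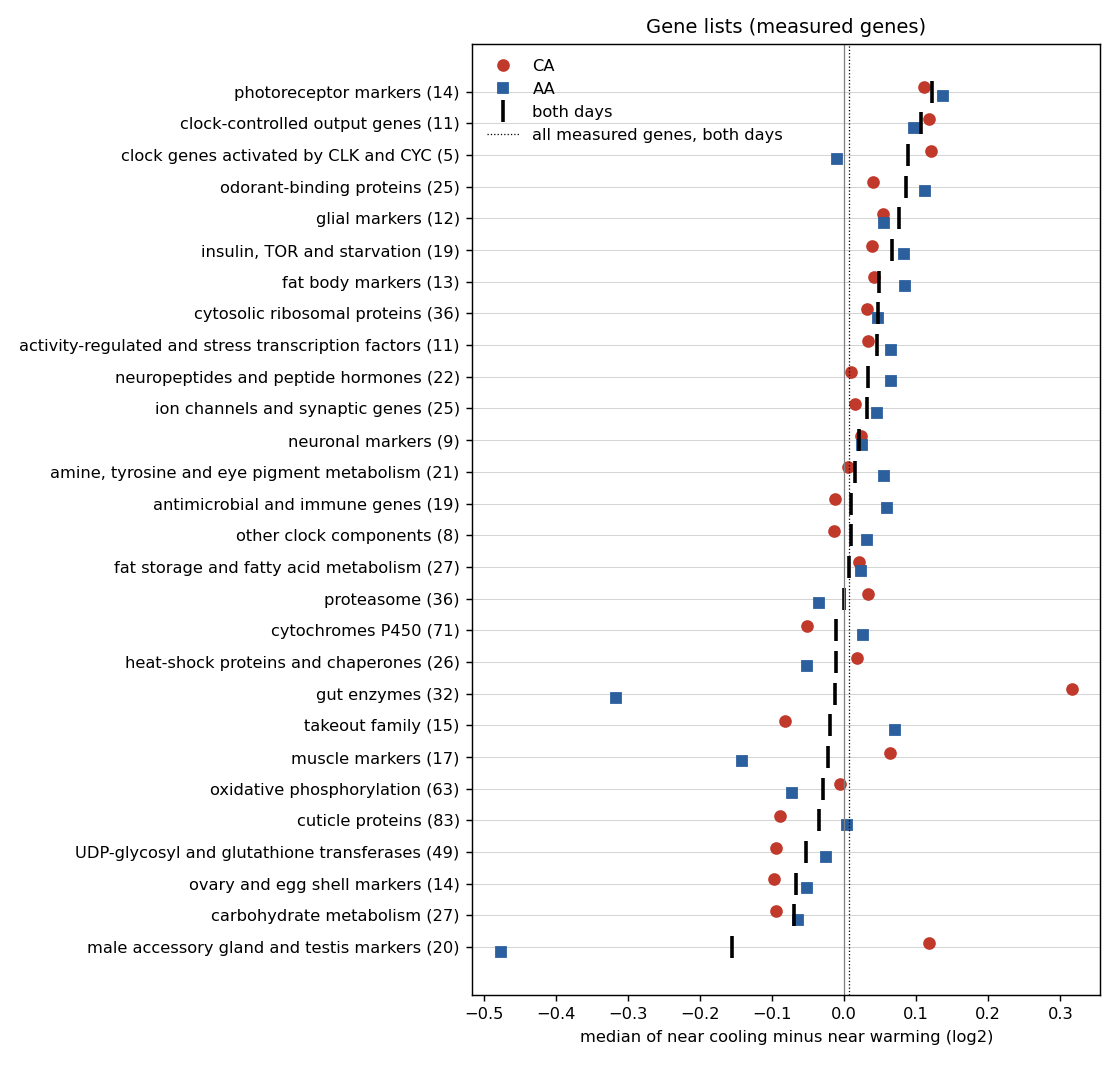
Median log2 difference, near cooling minus near warming, of the measured genes of 28 lists in CA (red circles), in AA (blue squares) and in both days (black ticks), with the number of genes in parentheses. Carbohydrate metabolism lies below 0 on both days and photoreceptor markers above 0, while gut, muscle and male-gland markers lie above 0 in CA and below 0 in AA.

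Other lists moved by small amounts. Cytosolic ribosomal protein genes lay higher in 31 of 36 (median 0.05), a lean that was 0.0060 without CA14 or without CA22. UDP-glycosyl and glutathione transferases lay lower in 34 of 49 (median -0.05). At an unadjusted p under 0.05, 7 of them lay lower, among them *GstD10* (-0.26 ± 0.06) and *GstE8* (-0.27 ± 0.08), and 0 higher. Of all 8908 measured genes, 137 lay lower at that threshold and 292 higher. Oxidative phosphorylation genes lay lower in 45 of 63 (median -0.03), with 28 higher in CA and 7 in AA, and the median was 0.04 without CA14 or CA22 and -0.09 without CA2 or CA10. Cuticle proteins lay lower in 60 of 83 (median -0.03, between -0.07 and -0.0085 with 1 array left out). Heat-shock proteins and chaperones, many of which respond to heat, lay higher in 11 of 26 and lower in 15 (median -0.01, but 0.07 without CA14 or CA22). Only *Hsc70-5*, a mitochondrial chaperone gene, had no overlap among them (0.17 ± 0.05). Over all 8908 measured genes, 183 lay higher without overlap and 119 lower. Of 22 neuropeptide genes 16 lay higher (median 0.03, but -0.06 without CA14 or CA22), and *CNMa* was the one of them higher without overlap (0.17 ± 0.05). *Pdf*, which encodes the output peptide of the main pacemaker neurons, differed by 0.03. Of the immune genes, *Def*, encoding the antimicrobial peptide defensin, measured 8.92, 8.82, 8.78 and 8.87 in CA22, CA2, AA22 and AA2, and 8.01, 8.63, 8.33 and 8.71 in CA14, CA10, AA14 and AA10. Its sides did not overlap (0.43 ± 0.14), while the list as a whole was balanced at 10 of 19 higher. Of 21 genes of amine, tyrosine and eye pigment metabolism 13 lay higher (median 0.02) and none passed. The 3 with the smallest p were *hgo* (-0.26 ± 0.06) and *Hpd* (-0.36 ± 0.13), 2 enzymes of tyrosine breakdown, which lay lower, and *bw*, an eye pigment transporter gene, which lay higher (0.28 ± 0.11).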

How the data were processed

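Heads were measured on Affymetrix Drosophila Genome arrays. The authors made the deposited values with RMA (background correction, normalization across arrays and 1 summary value a probe set), whose version is not given in the sources used here. That these deposited values are log2 was read from their range. Groups came from the hours in the labels. Probe sets with more than 6 of their 12 values above the array's 20th percentile were kept, as in the paper's methods, and the 44 control probe sets left out. Names came from the platform annotation (12443 probe sets with 1 gene name, 327 with several, 1196 with none; 12398 of the 12443 matched the reference table). A gene was read from its probe set with the highest mean.

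limma 3.58.1 in R 4.3.3 was fitted to the 8 arrays in 4 groups (day by side) with a term for 18 °C, tested on simulated data, with Benjamini-Hochberg adjustment over 11145 probe sets. Days were averaged for the combined difference. Same-hour arrays of CA and AA deviated together (correlation 0.30 for hours 2 and 22 and 0.77 for hours 10 and 14, 1 value for each pair of hours because a group has 2 arrays), and fits with the hour as a block were made. The SEs and p-values given for genes came from fits without a block, which took same-hour arrays as independent. With the hour as a random block the adjusted p of *tim* for both days was 0.999.

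Named were every measured clock and output gene; the 12 largest passing differences each way, or else genes without overlap and over 0.3 by smallest p; 4 genes each way for the difference between days; and up to 3 of each other list. The arrays, lists and rules were chosen with earlier results of these data known. Of 30 lists, male dosage compensation RNAs had 0 measured genes. Figures were drawn with matplotlib 3.10.9 and the index tested with scipy 1.17.1. The number of arrays limits the precision.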

Additional observations from a re-analysis of the deposited data

Results flagged for a closer look

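Each side's 4 arrays were searched for a single value far from the other 3, for the body-tissue index and the genes of the clock, output and largest-difference groups. Of 72 such sets of 4, 2 stood out at the 95% level of Dixon's test, and chance marks about 1 in 20. *Acp1* near warming had 10.13 in CA14, against 9.39 to 9.41 on the other 3 arrays. *Pdp1* near cooling had 7.14 in AA2, against 7.37 to 7.41 on the others. No probe set passed the test of a difference between CA and AA.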

How the results depend on the processing

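Calls stayed at 0 in each of the 4 tests with each array left out, with all 12 arrays in 6 groups, without the temperature term, without the filter or with one on the mean level, with limma's trended robust prior, with array medians made equal, and with the threshold at 0.2. They were also 0 with the hour as a random replicate block or the matched pairs as a fixed one, where 210 and 299 probe sets had an unadjusted p under 0.05 for both days, against 532 without a block, and 736 and 80 for the difference between days, against 183. The 24-h cosine gave 5 calls for both days, 4 in CA and 0 in AA, and the body-tissue index as a covariate gave 20, 11 and 2; the cause was not tested. With 1 array left out, unadjusted counts lay between 222 (without AA22) and 1053 (without CA2 or CA10) for both days and between 77 (without AA2) and 745 (without CA14 or CA22) for the difference between days. With the index as a covariate they were 1530 and 574. In CA, leaving out either array of one temperature gives the same value, because the temperature term then takes up its partner.

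Among the named clock, output and non-overlapping genes, small differences turned. *Cyp6a21* was 0.0022 with a common array median, and with 1 array left out it lay between -0.18 and 0.17, *Slob* between -0.21 and 0.10, *per* between -0.12 and 0.15, *Clk* between -0.015 and 0.20, *mnd* between -0.0745 and 0.12 and *trpl* between -0.0875 and 0.30. With 2 arrays a side on each day, small differences could not be resolved.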
